A study of Homo sapiens with 6 samples.

Results

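Genes that make sterols and fatty acids, with the genes that set their transcription, were measured in T47D cells after a siRNA against HOTAIR-N or a control siRNA. The 37 genes were chosen by their symbols as the gene tables list them, out of 27968 genes in all. They are 20 genes of sterol synthesis and carriage, 12 genes of fatty acid synthesis, elongation, desaturation and activation, and 5 regulators of the SREBP pathway. All 37 were found and all 37 passed the filter on low counts.

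T47D is an established line of luminal, hormone receptor-positive breast cancer cells. The HOTAIR-N siRNA group has 3 libraries and the control siRNA group has 3 libraries, each from its own transfection with RNAiMAX, and RNA was taken 48 h later. Both groups were grown with 10% serum, which brings cholesterol and fatty acids into the medium. HOTAIR is a long noncoding RNA, and HOTAIR-N is the form that the labels name as the target. The number of siRNA sequences is not stated in the labels, and the HOTAIR-N form was not matched to a transcript, so the check of the target is the HOTAIR gene as a whole.

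Cells make cholesterol from acetyl-CoA by way of mevalonate, squalene and lanosterol, and they make palmitate from acetyl-CoA by way of malonyl-CoA. The transcription factors SREBP1 and SREBP2, encoded by SREBF1 and SREBF2, raise the genes of both routes when sterols in the endoplasmic reticulum are low. SCAP carries the SREBPs to the Golgi to be cut, and the INSIG proteins hold SCAP back when sterols are plentiful.

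HOTAIR, the target, was at 5.65, 5.63 and 5.68 CPM (counts scaled to the size of the library) in HOTAIR-N siRNA libraries 1, 2 and 3, against 16.2, 16.1 and 16.6 CPM in control siRNA libraries 1, 2 and 3. The level with the HOTAIR-N siRNA was 34.7% of that with the control siRNA (log2 fold change -1.53, SE 0.07, adjusted p = 2.1e-09 by edgeR's quasi-likelihood test). Expected counts summed to 31777001 to 35259407 in the HOTAIR-N siRNA libraries and to 35106084 to 36707169 in the control siRNA libraries. The 12 luminal epithelial markers summed to 8964 to 9785 TPM (abundance scaled to transcript length and library size) with the HOTAIR-N siRNA and to 10544 to 11710 TPM with the control siRNA. At an adjusted p under 0.05, 8 of the 12 fell, among them ESR1 to 32.1% and PGR to 36.4% of the control siRNA level. CDH1 and SPDEF rose, to 186% and 153%. The share that passed was 83.3%, against 71.1% of all genes tested. Of the 4 lists of basal, fibroblast, leukocyte and endothelial markers, the fibroblast list was highest, at no more than 8.98 TPM with the HOTAIR-N siRNA and 10.2 TPM with the control siRNA, almost all of it COL1A1, and no marker was at 0 in all libraries. On the second principal component, which held 5.2% of the variance, HOTAIR-N siRNA library 3 and control siRNA library 2 lay apart from the others, so counts are also given without both.

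With the HOTAIR-N siRNA, 18 of the 37 genes fell and 9 rose at an adjusted p under 0.05, and 10 did not pass the test. Among all 14919 genes tested, 71.1% passed (36.2% higher, 34.8% lower), so the share of 73% here lies near that background. The median log2 fold change was -0.11 over the 37 genes and 0.02 over all genes tested. It was also -0.11 over the 1579 genes at or above the median level of the 37, of which 76.6% passed, and -0.02 over the 11436 genes at or above the least abundant of them, of which 75% passed. Scaling by library totals alone gave 16 lower and 14 higher of the 37 genes. Of the 20 sterol genes 11 fell and 5 rose, of the 12 fatty acid genes 5 fell and 2 rose, and of the 5 regulators 2 fell and 2 rose. The median log2 fold change was -0.25 for the sterol genes, -0.11 for the fatty acid genes and 0.11 for the regulators. The 2 libraries of each group that remained without HOTAIR-N siRNA library 3 and control siRNA library 2 gave 21 lower and 10 higher of the 37 genes. Over all 15082 genes tested in that setting, 5604 were lower and 5526 higher. In bulk RNA, fewer cells with a transcript and less of it per cell cannot be told apart.

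The median size of the log2 fold change, whatever its sign, was 0.41 over the 37 genes and 0.38 over all genes tested. It was 0.32 over genes at or above the least abundant of the 37, and 0.25 over genes at or above their median level. Shares at larger changes are given against all genes tested, whatever their level. A change of at least 1.5-fold that passed the test was found in 10 of the 37 genes (27%), against 32.7% of all genes tested. Those that fell at least 1.5-fold were INSIG1, ACACA, ACLY, FADS2, ACAT2, FASN and LSS, and those that rose at least 1.5-fold were HMGCS1, ACSL1 and AACS. A change of at least 2-fold was found in 2 of the 37 genes (5.41%), INSIG1 and ACACA, against 15.8% of all genes tested. Tested against a 1.2-fold change, 14 of the 37 genes were lower and 5 higher, and 46.1% of all genes tested passed. In 29 of the 37 genes the HOTAIR-N siRNA libraries did not overlap the control siRNA libraries, against 73.4% of all genes tested.

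**Figure D1:**
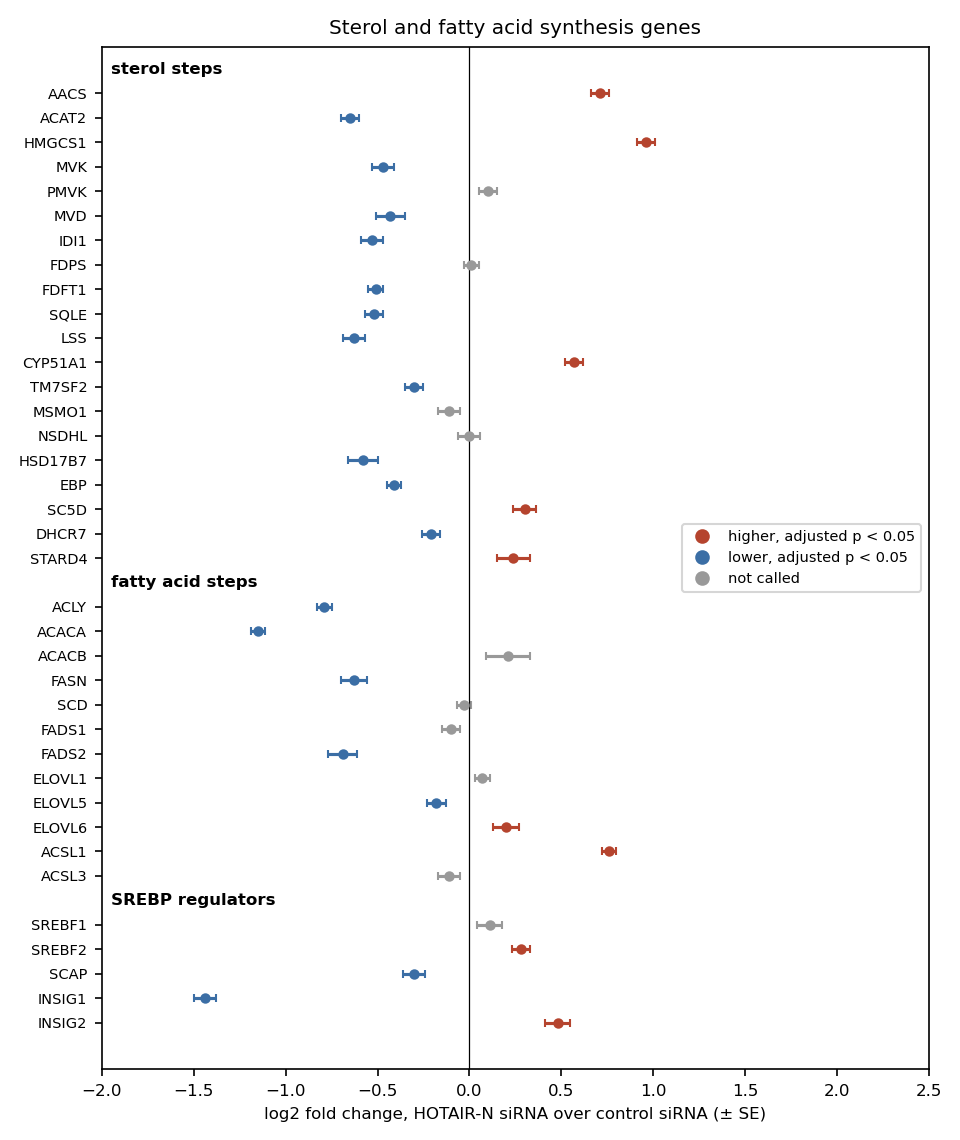
Log2 fold change of each of the 37 genes, HOTAIR-N siRNA over control siRNA, with bars of 1 SE (3 libraries per group), in the order of the pathway and by role. The values run from -1.44 for INSIG1 to 0.96 for HMGCS1, and most of the sterol genes that passed the test lie left of 0.

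The opening of the sterol pathway moved in both directions. HMGCS1, the cytosolic synthase that makes HMG-CoA, had 536, 528 and 575 CPM in the HOTAIR-N siRNA libraries, against 280, 295 and 269 CPM in the control siRNA libraries. Every HOTAIR-N siRNA library lay above every control siRNA library, and the level was 1.94-fold that of the control siRNA (log2 fold change 0.96, SE 0.05, adjusted p = 3.8e-09). It was the largest rise among the 37 genes.

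AACS, which activates acetoacetate in the cytosol, had 80.8, 83.6 and 81.7 CPM with the HOTAIR-N siRNA and 52.0, 49.3 and 49.1 CPM with the control siRNA. All 3 HOTAIR-N siRNA libraries were higher, and the gene rose 1.64-fold (log2 fold change 0.71, SE 0.05, adjusted p = 7.2e-08). ACAT2, the cytosolic thiolase that joins acetyl-CoA units, had 75.2, 69.6 and 77.1 CPM in HOTAIR-N siRNA libraries, against 115, 120 and 113 CPM in control siRNA libraries. All 3 HOTAIR-N siRNA libraries were lower here, at 63.8% of the control siRNA level (log2 fold change -0.65, SE 0.05, adjusted p = 3e-07). ACAT2 overlaps TCP1 and SOD2, whose log2 fold changes were -0.72 and 0.84, and no label says whether strand was used in counting.

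The promoters of the pair of called genes with the largest rises, HMGCS1 and ACSL1, and of the pair with the largest falls, INSIG1 and ACACA, are shown to place these opposite changes beside the DNA at each start. ACSL1 makes acyl-CoA from long-chain fatty acids, and ACACA makes malonyl-CoA. Each is the RefSeq sequence on GRCh38.p14 from 250 bases before to 50 bases after the start, read 5′ to 3′ on the strand of the gene. Capitals mark the NF-Y box CCAAT on either strand (ATTGG is its reverse) and the E-box CACGTG. The HMGCS1 sequence is chr5:43313363-43313662 on the minus strand, ACSL1 is chr4:184825919-184826218 on the minus strand, INSIG1 is chr7:155297628-155297927 on the plus strand and ACACA is chr17:37406787-37407086 on the minus strand.
HMGCS1: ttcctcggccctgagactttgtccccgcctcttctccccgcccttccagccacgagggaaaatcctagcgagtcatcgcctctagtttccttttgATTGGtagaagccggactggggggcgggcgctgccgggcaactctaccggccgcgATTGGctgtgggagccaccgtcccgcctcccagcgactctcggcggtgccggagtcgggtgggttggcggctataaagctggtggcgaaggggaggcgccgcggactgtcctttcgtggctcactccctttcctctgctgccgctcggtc
ACSL1: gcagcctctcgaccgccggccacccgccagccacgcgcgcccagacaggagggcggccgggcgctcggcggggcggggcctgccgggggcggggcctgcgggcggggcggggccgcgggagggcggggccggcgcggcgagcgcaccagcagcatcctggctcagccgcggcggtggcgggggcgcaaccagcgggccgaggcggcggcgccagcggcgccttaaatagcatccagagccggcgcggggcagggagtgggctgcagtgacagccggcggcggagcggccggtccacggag
INSIG1: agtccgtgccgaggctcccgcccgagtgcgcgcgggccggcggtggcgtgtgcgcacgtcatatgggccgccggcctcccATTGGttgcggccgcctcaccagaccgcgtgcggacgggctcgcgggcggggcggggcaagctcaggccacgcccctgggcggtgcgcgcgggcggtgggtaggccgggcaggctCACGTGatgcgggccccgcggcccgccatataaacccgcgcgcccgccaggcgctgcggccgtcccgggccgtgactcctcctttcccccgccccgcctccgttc
ACACA: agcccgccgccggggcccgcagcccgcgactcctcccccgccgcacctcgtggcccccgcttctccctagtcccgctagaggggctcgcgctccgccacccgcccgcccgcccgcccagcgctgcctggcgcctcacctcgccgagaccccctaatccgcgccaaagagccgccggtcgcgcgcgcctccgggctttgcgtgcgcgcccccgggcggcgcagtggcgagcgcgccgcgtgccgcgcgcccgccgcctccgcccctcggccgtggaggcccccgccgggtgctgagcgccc

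HMGCS1 holds an NF-Y box at 155 and at 100 bases before its start. INSIG1 holds an NF-Y box at 170 bases and an E-box at 55 bases before its start, while the ACSL1 and ACACA windows hold neither motif. Promoters were matched for 33 of the 37 genes. CCAAT, searched on both strands, was in 20 of these 33 promoters (60.6%) and in 35.7% of 27305 promoters of the same length. By role it was in 13 of 17 sterol genes, 5 of 11 fatty acid genes and 2 of 5 regulators.

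The GC box GGGCGG was in 29 of 33 promoters (87.9%), against 44.6% of all promoters. The E-box CACGTG was in 5 of 33 (15.2%), against 7.43% of all. The sterol regulatory element consensus TCACNCCAC was in 1 of 33 (3.03%), that of SREBF2, against 1.15% of all. The comparison promoters, for CCAAT as well, include those of genes not tested in these cells, so expressed genes alone were not compared. No overlap between these motifs was set aside, and a match describes the letters of this window, not a bound site. Only exact matches to each string were searched, with N as any base. The lack of a match thus does not show that a promoter has no such element.

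The enzymes from mevalonate to lanosterol come next in the order of the pathway. LSS, which closes squalene epoxide into lanosterol, had 132, 141 and 130 CPM in HOTAIR-N siRNA libraries, against 222, 192 and 212 CPM in control siRNA libraries. The groups did not overlap, and LSS fell to 64.4% of the control siRNA level (log2 fold change -0.63, SE 0.06, adjusted p = 7.6e-07).

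IDI1, the isomerase that makes dimethylallyl pyrophosphate, had 279, 286 and 319 CPM with the HOTAIR-N siRNA and 416, 463 and 401 CPM with the control siRNA, without overlap. Its level was 69% of the control siRNA level (log2 fold change -0.53, SE 0.06, adjusted p = 7.5e-06). FDFT1, the squalene synthase that commits farnesyl units to sterols, had 372, 358 and 377 CPM with the HOTAIR-N siRNA and 531, 532 and 518 CPM with the control siRNA. It too fell without overlap, to 70% (log2 fold change -0.51, SE 0.04, adjusted p = 1e-07).

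SQLE, the epoxidase that oxidises squalene, had 186, 185 and 200 CPM in HOTAIR-N siRNA libraries, against 267, 286 and 267 CPM in control siRNA libraries. Its fall to 69.7% was of nearly the same size (log2 fold change -0.52, SE 0.05, adjusted p = 8.8e-07). MVK, the mevalonate kinase, fell to 72.2% (63.6 ± 2.81 CPM with the HOTAIR-N siRNA and 88.0 ± 6.92 CPM with the control siRNA, SD, n = 3 each, edgeR adjusted p = 2.8e-05). MVD, the decarboxylase that makes isopentenyl pyrophosphate, fell to 74.2% (86.1 ± 5.05 CPM with the HOTAIR-N siRNA and 116 ± 14.0 CPM with the control siRNA, SD, n = 3 each, edgeR adjusted p = 0.00038). MVK overlaps MMAB, whose log2 fold change was -0.56, and 13 of the 37 genes have exons that overlap a gene on the opposite strand.

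FDPS and PMVK, of the same stretch, did not pass the test. FDPS, which makes farnesyl pyrophosphate for sterols and for prenylated proteins, had 224, 215 and 217 CPM with the HOTAIR-N siRNA and 220, 214 and 218 CPM with the control siRNA. The libraries of both groups overlapped, and the log2 fold change was 0.01 with a 95% interval of -0.08 to 0.09 (0.11 under library totals alone, where edgeR's adjusted p was 0.026). PMVK, the phosphomevalonate kinase, had a log2 fold change of 0.10 (adjusted p = 0.078), and was called higher under library totals (0.20, adjusted p = 0.0035) and upper-quartile scaling (0.16, adjusted p = 0.012).

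**Figure D2:**
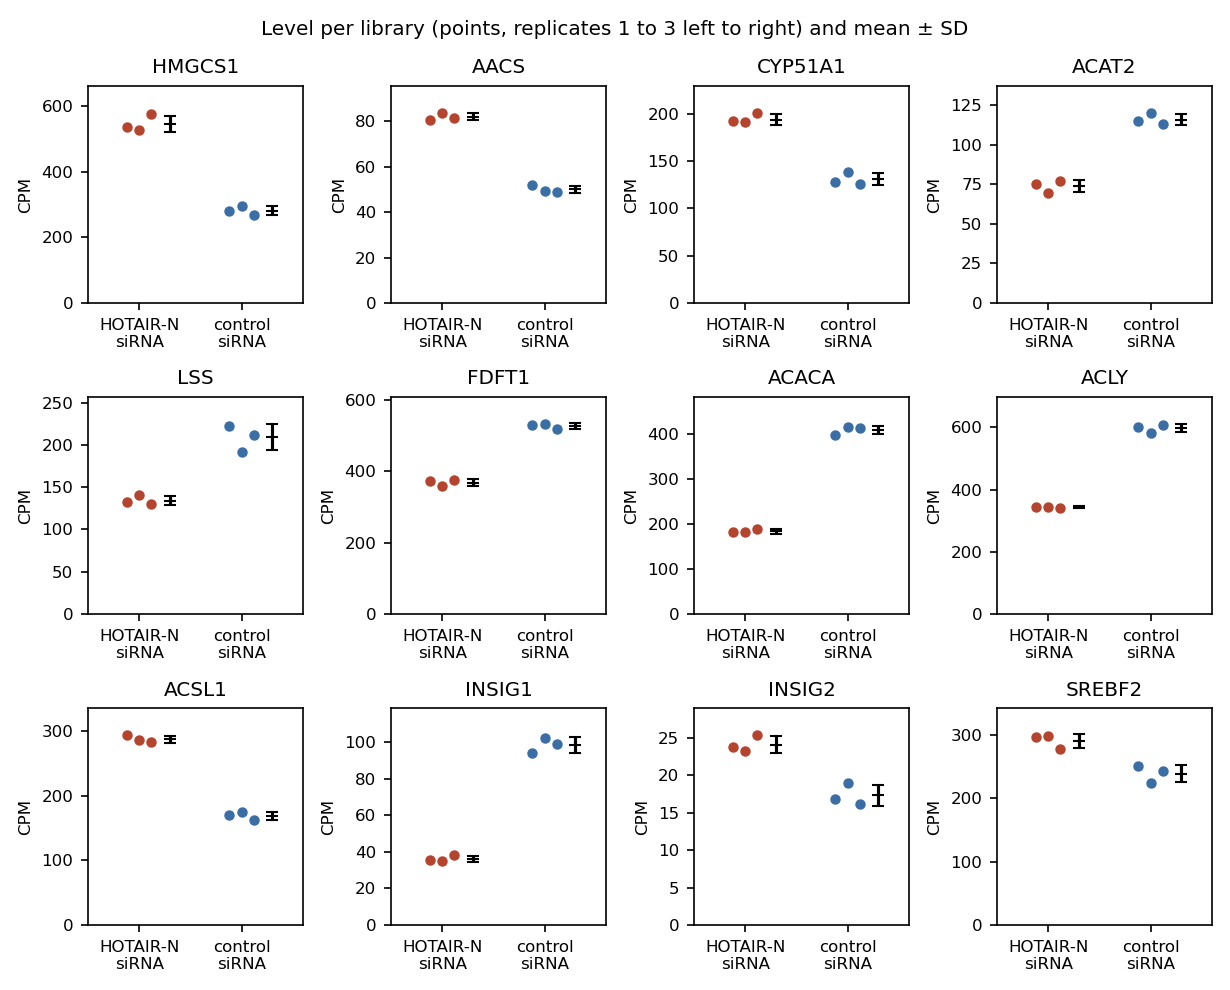
TMM-scaled CPM of selected genes in each library, HOTAIR-N siRNA left of control siRNA, with the mean and SD of 3 libraries as bars. Points of HMGCS1 lie higher and points of INSIG1 and ACACA lower with the HOTAIR-N siRNA, with no overlap between the groups.

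After lanosterol the directions were mixed. CYP51A1, the demethylase that acts first on lanosterol, had 192, 191 and 201 CPM in HOTAIR-N siRNA libraries, against 128, 139 and 126 CPM in control siRNA libraries. All HOTAIR-N siRNA libraries were higher, and CYP51A1 rose 1.48-fold (log2 fold change 0.57, SE 0.05, adjusted p = 4.5e-07), while LSS just before it fell. SC5D, the desaturase near the end of the route, rose 1.23-fold (277 ± 17.5 CPM with the HOTAIR-N siRNA and 225 ± 16.8 CPM with the control siRNA, SD, n = 3 each, edgeR adjusted p = 0.00072).

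Of the other enzymes after lanosterol, HSD17B7, a ketoreductase that helps to demethylate the sterol ring, fell to 67.1% (16.3 ± 1.64 CPM with the HOTAIR-N siRNA and 24.4 ± 1.59 CPM with the control siRNA, SD, n = 3 each, edgeR adjusted p = 4.2e-05). EBP, the sterol isomerase, fell to 75.1% (75.9 ± 0.466 CPM with the HOTAIR-N siRNA and 101 ± 0.925 CPM with the control siRNA, SD, n = 3 each, edgeR adjusted p = 3.3e-06). TM7SF2, a sterol reductase, fell to 81.3%, and DHCR7, the reductase that makes cholesterol from its last precursor, to 86.6% (adjusted p = 0.00034 and 0.0029). DHCR7 lost its call when libraries were scaled by their totals alone (log2 fold change -0.11, adjusted p = 0.082).

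MSMO1 and NSDHL, which act with HSD17B7 in that demethylation, did not pass the test. MSMO1 had a log2 fold change of -0.11 with a 95% interval of -0.24 to 0.01, and NSDHL had 0.00 with -0.12 to 0.13. MSMO1 was called lower without HOTAIR-N siRNA library 3 (-0.18, adjusted p = 0.0047) and with no filter on low counts (-0.13, adjusted p = 0.038). STARD4, a cytosolic sterol carrier, had 34.3, 39.7 and 41.4 CPM with the HOTAIR-N siRNA and 32.4, 36.2 and 29.2 CPM with the control siRNA. The groups overlapped, and its call (log2 fold change 0.24, SE 0.09, adjusted p = 0.026) was lost without HOTAIR-N siRNA library 2 or control siRNA library 1 (adjusted p = 0.071 each), without HOTAIR-N siRNA library 3 (0.082) and without control siRNA library 3 (0.13).

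Transcripts of ACLY, ACACA and FASN, which act in the cytosol, were lower, among the 5 of 12 fatty acid genes that fell. ACACA, the carboxylase that makes malonyl-CoA for synthesis, had 182, 182 and 190 CPM in HOTAIR-N siRNA libraries, against 399, 417 and 415 CPM in control siRNA libraries. No HOTAIR-N siRNA library came near a control siRNA library, and ACACA was at 44.9% of the control siRNA level (log2 fold change -1.15, SE 0.04, adjusted p = 2.7e-10). Its promoter is printed above.

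ACLY, which makes cytosolic acetyl-CoA from citrate, had 345, 345 and 342 CPM with the HOTAIR-N siRNA and 601, 583 and 606 CPM with the control siRNA. It fell to 57.7% without overlap (log2 fold change -0.79, SE 0.04, adjusted p = 1.7e-09). FASN, the synthase that builds palmitate, had 616, 656 and 572 CPM with the HOTAIR-N siRNA and 1015, 835 and 1008 CPM with the control siRNA. Control siRNA library 2 was the lowest of its group, and every HOTAIR-N siRNA library was still below it, with FASN at 64.5% (log2 fold change -0.63, SE 0.07, adjusted p = 6e-06).

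ACACB, the carboxylase of the mitochondrial surface, had 4.58, 4.11 and 3.88 CPM with the HOTAIR-N siRNA and 3.81, 3.25 and 3.81 CPM with the control siRNA. All 3 HOTAIR-N siRNA libraries were higher, but the difference did not pass the test (log2 fold change 0.21, 95% interval -0.04 to 0.46, adjusted p = 0.12), though it did under library totals (0.31, adjusted p = 0.033). ACACA was far above ACACB per length, at 36.6 ± 1.04 TPM with the HOTAIR-N siRNA and 79.9 ± 1.48 TPM with the control siRNA (SD, n = 3 each). ACACB was at 0.863 ± 0.0709 TPM with the HOTAIR-N siRNA and 0.727 ± 0.0666 TPM with the control siRNA, the lowest of the 37 genes.

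Among the desaturases, FADS2, which opens the route to highly unsaturated fatty acids, had 12.3, 11.7 and 10.3 CPM in HOTAIR-N siRNA libraries, against 19.2, 17.3 and 18.8 CPM in control siRNA libraries. It fell to 61.9% without overlap (log2 fold change -0.69, SE 0.08, adjusted p = 7e-06), and it overlaps FEN1, whose log2 fold change was -0.41. FADS1, the desaturase further along the same route, had a log2 fold change of -0.10 (adjusted p = 0.076). SCD, which makes oleate from stearate, had 2660, 2549 and 2767 CPM with the HOTAIR-N siRNA and 2721, 2813 and 2629 CPM with the control siRNA. The groups overlapped, with a log2 fold change of -0.03 and a 95% interval of -0.11 to 0.05. SCD was the most abundant of the 37 genes per length, at 940 ± 40.1 TPM with the HOTAIR-N siRNA and 942 ± 34.2 TPM with the control siRNA (SD, n = 3 each).

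Elongases lengthen acyl chains, and those among the fatty acid genes, ELOVL5, ELOVL6 and ELOVL1, moved little at the level of the whole gene. ELOVL5 fell to 88.3% and lost its call under library totals (log2 fold change -0.18, adjusted p = 0.0065, against -0.08 and 0.15 under library totals). ELOVL6 rose 1.15-fold (log2 fold change 0.20, adjusted p = 0.017), and lost its call without HOTAIR-N siRNA library 3 (0.073) or control siRNA library 3 (0.09). ELOVL1 had a log2 fold change of 0.07 with a 95% interval of -0.02 to 0.16, and was called higher under library totals (0.17, adjusted p = 0.0035) and upper-quartile scaling (0.13, adjusted p = 0.017).

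ACSL1, the acyl-CoA synthetase introduced with its promoter, had 293, 286 and 283 CPM in HOTAIR-N siRNA libraries, against 170, 175 and 162 CPM in control siRNA libraries. Every HOTAIR-N siRNA library was higher, and ACSL1 rose 1.7-fold (log2 fold change 0.76, SE 0.04, adjusted p = 1.1e-08). ACSL3, an acyl-CoA synthetase of the endoplasmic reticulum and lipid droplets, had a log2 fold change of -0.11 (adjusted p = 0.098), and was called lower without HOTAIR-N siRNA library 3 (-0.16, adjusted p = 0.017) and with no filter on low counts (-0.13, adjusted p = 0.046).

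**Figure D3:**
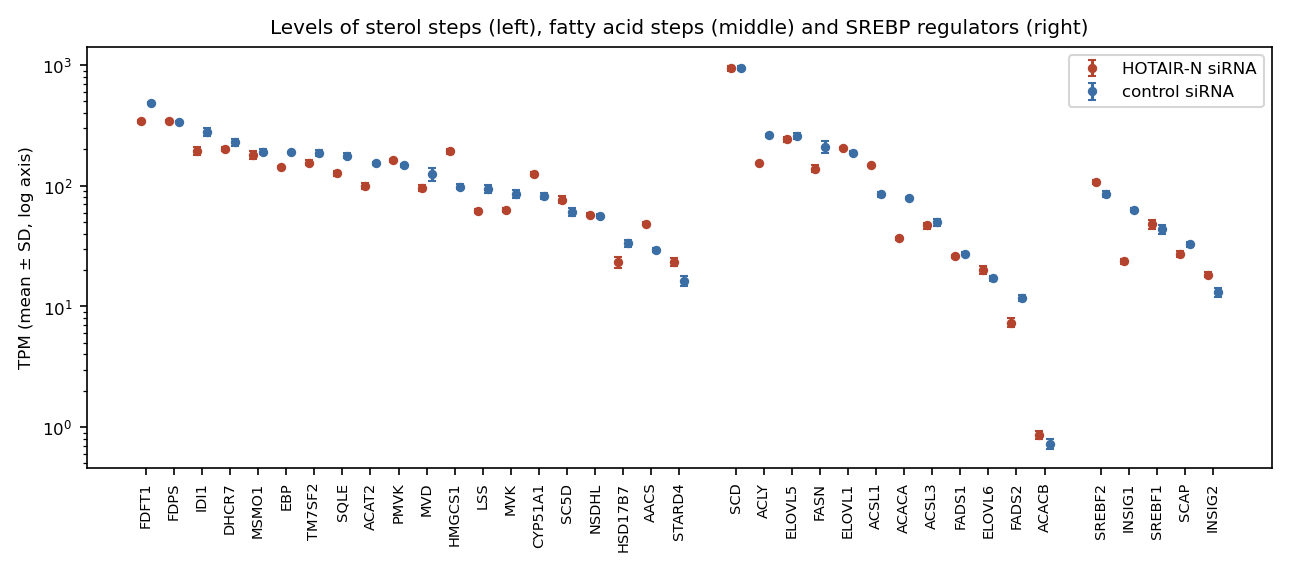
Mean TPM of each of the 37 genes on a log axis, the HOTAIR-N siRNA left of the control siRNA for each gene, with bars of 1 SD over 3 libraries per group, ordered by level within the sterol genes, fatty acid genes and regulators. The genes span 0.863 to 940 TPM with the HOTAIR-N siRNA and 0.727 to 942 TPM with the control siRNA, with ACACB lowest and SCD highest.

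Among the regulators, INSIG1 had the largest change of all 37 genes. This sterol-sensing brake on SCAP, itself a target of the SREBPs, had 35.4, 35.0 and 38.3 CPM in HOTAIR-N siRNA libraries, against 94.0, 102 and 98.9 CPM in control siRNA libraries. The groups lay far apart, and INSIG1 was at 36.8% of the control siRNA level (log2 fold change -1.44, SE 0.06, adjusted p = 5.8e-10). INSIG2, its paralog, had 23.8, 23.2 and 25.4 CPM with the HOTAIR-N siRNA and 16.8, 19.0 and 16.2 CPM with the control siRNA. It moved the other way without overlap, to 1.39-fold (log2 fold change 0.48, SE 0.07, adjusted p = 8.1e-05).

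Per length, INSIG1 was at 23.7 ± 1.25 TPM and INSIG2 at 18.3 ± 0.868 TPM with the HOTAIR-N siRNA (SD, n = 3 each). With the control siRNA, INSIG1 was at 63.3 ± 2.65 TPM and INSIG2 at 13.1 ± 1.05 TPM (SD, n = 3 each). INSIG1 was thus above INSIG2 in both groups, by less with the HOTAIR-N siRNA.

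SREBF2, the SREBP of sterol genes, had 297, 299 and 278 CPM with the HOTAIR-N siRNA and 251, 225 and 243 CPM with the control siRNA. All 3 HOTAIR-N siRNA libraries were higher, and SREBF2 rose 1.22-fold (log2 fold change 0.28, SE 0.05, adjusted p = 0.00023). SREBF1, whose products drive fatty acid genes, had 104, 112 and 94.7 CPM with the HOTAIR-N siRNA and 101, 86.8 and 101 CPM with the control siRNA. The groups overlapped and the test was not passed (log2 fold change 0.11, 95% interval -0.05 to 0.26, adjusted p = 0.21), though it was under library totals (0.20, adjusted p = 0.029). SREBF1 overlaps RAI1, whose log2 fold change was -0.67. SCAP fell to 81.4% (58.6 ± 3.33 CPM with the HOTAIR-N siRNA and 71.9 ± 3.00 CPM with the control siRNA, SD, n = 3 each, edgeR adjusted p = 0.00051).

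Summed over genes, the deposited TPM of the 20 sterol genes came to 2705, 2697 and 2776 in HOTAIR-N siRNA libraries, against 3107, 3053 and 3015 in control siRNA libraries. The 12 fatty acid genes summed to 1956, 1930 and 2012 TPM with the HOTAIR-N siRNA and to 2157, 2147 and 2089 TPM with the control siRNA. Both sums were lower in every HOTAIR-N siRNA library, and SCD made up 940 and 942 TPM of the fatty acid sum in the 2 groups. These TPM are not TMM-scaled. TMM-scaled CPM of the sterol genes summed to 3383 ± 70.9 with the HOTAIR-N siRNA and 3620 ± 55.7 with the control siRNA. For the fatty acid genes they summed to 4822 ± 87 and 5638 ± 54.2 (SD, n = 3 each), again without overlap in both roles. No other sets of genes were summed for comparison. The 5 regulators summed to 224 ± 7.43 TPM with the HOTAIR-N siRNA and 239 ± 6.67 TPM with the control siRNA (SD, n = 3 each), and their libraries met at 231 TPM.

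The 2 libraries that stood apart shifted many of these genes the same way. Set against the other 2 libraries of its own group, HOTAIR-N siRNA library 3 and control siRNA library 2 deviated with the same sign in 34 of the 37 genes. For FASN the deviation was -0.15 in HOTAIR-N siRNA library 3 and -0.28 in control siRNA library 2, on the log2 scale. Without both libraries PMVK, MSMO1, FADS1 and ACSL3 also passed the test, with log2 fold changes of 0.09, -0.15, -0.13 and -0.12 (adjusted p = 0.039, 0.0003, 0.0064 and 0.0036). The libraries left out were picked by their spread in these same data, so a smaller spread without them was built in. These added calls, from 2 libraries per group, are a description.

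The transcript tables split these genes into 133 RefSeq transcripts, of which 111 passed the filter, 14 rose, 34 fell and 63 did not pass the test. Over all 32285 transcripts tested, 32% passed. What part of its gene each transcript made up was tested with limma for 103 transcripts of 29 genes, and a share was called at an adjusted p under 0.05 and a change of at least 5 percentage points. Shares of 6 transcripts in 4 of these genes, HMGCS1, ELOVL1, ACSL3 and MVK, were called, against 4.3% of 25038 transcripts in all.

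In HMGCS1, NM_001098272 made up 77.0%, 76.3% and 74.6% of the gene in HOTAIR-N siRNA libraries, against 54.2%, 53.4% and 53.8% in control siRNA libraries. NM_002130 made up 16.5%, 17.3% and 20.2% with the HOTAIR-N siRNA and 40.4%, 42.8% and 41.0% with the control siRNA. Neither transcript's groups overlapped (limma adjusted p = 0.0066 for NM_001098272 and 0.0051 for NM_002130). NM_001098272, the most abundant transcript of the gene, rose, at 417 ± 15.4 CPM with the HOTAIR-N siRNA and 151 ± 6.92 CPM with the control siRNA (SD, n = 3 each, log2 fold change 1.46, edgeR adjusted p = 3.4e-05). NM_002130 did not pass the test (log2 fold change -0.23, adjusted p = 0.22). Of the less abundant transcripts, NM_001324220 rose 2.92-fold (25.4 ± 3.28 CPM with the HOTAIR-N siRNA and 8.69 ± 2.84 CPM with the control siRNA, SD, n = 3 each, edgeR adjusted p = 0.0079). NM_001330663 rose 3.55-fold (5.71 ± 1.57 CPM with the HOTAIR-N siRNA and 1.61 ± 0.323 CPM with the control siRNA, SD, n = 3 each, edgeR adjusted p = 0.0051). In the GENCODE 29 annotation on GRCh38, NM_001098272 holds an untranslated exon of 59 bases that NM_002130 lacks, at chr5:43307766-43307824 on the minus strand.

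In ELOVL1, the elongase of saturated very long chains, NM_022821 made up 83.6%, 79.2% and 78.6% with the HOTAIR-N siRNA and 50.1%, 54.7% and 55.5% with the control siRNA. NM_001256399 made up 15.9%, 19.3% and 20.1% with the HOTAIR-N siRNA and 47.6%, 42.8% and 42.0% with the control siRNA. The shares thus moved in opposite directions without overlap, while the gene's sum did not pass the test (limma adjusted p = 0.013 for NM_022821 and 0.0088 for NM_001256399). The NM_022821 call was lost without any 1 HOTAIR-N siRNA library (adjusted p = 0.053 to 0.057) or without control siRNA library 2 (0.052). Each transcript has its own untranslated exon, of 104 bases at chr1:43367915-43368018 in NM_022821 and of 253 bases at chr1:43367486-43367738 in NM_001256399, both on the minus strand.

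In ACSL3, NM_203372 made up 20.4%, 18.9% and 23.2% with the HOTAIR-N siRNA and 32.8%, 39.0% and 36.9% with the control siRNA (limma adjusted p = 0.028). In MVK, NM_001301182 made up 4.28%, 5.55% and 5.96% with the HOTAIR-N siRNA and 10.6%, 14.6% and 15.1% with the control siRNA (limma adjusted p = 0.034). Both shares were lower in every HOTAIR-N siRNA library, but edgeR's diffSpliceDGE called neither (adjusted p = 0.084 each). NM_001301182 lacks a coding exon of 156 bases of NM_000431, at chr12:109581395-109581550 on the plus strand. Both calls also rested on single libraries: NM_203372 lost its call without any 1 library other than HOTAIR-N siRNA library 3 (adjusted p = 0.056 to 0.1), and NM_001301182 without any 1 other than control siRNA library 1 (0.079 to 0.11). Of the 6 calls, 3 were left without HOTAIR-N siRNA library 1, without HOTAIR-N siRNA library 2 and without control siRNA library 2. The shares are RSEM's division of reads between transcripts that share most of their sequence.

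**Figure D4:**
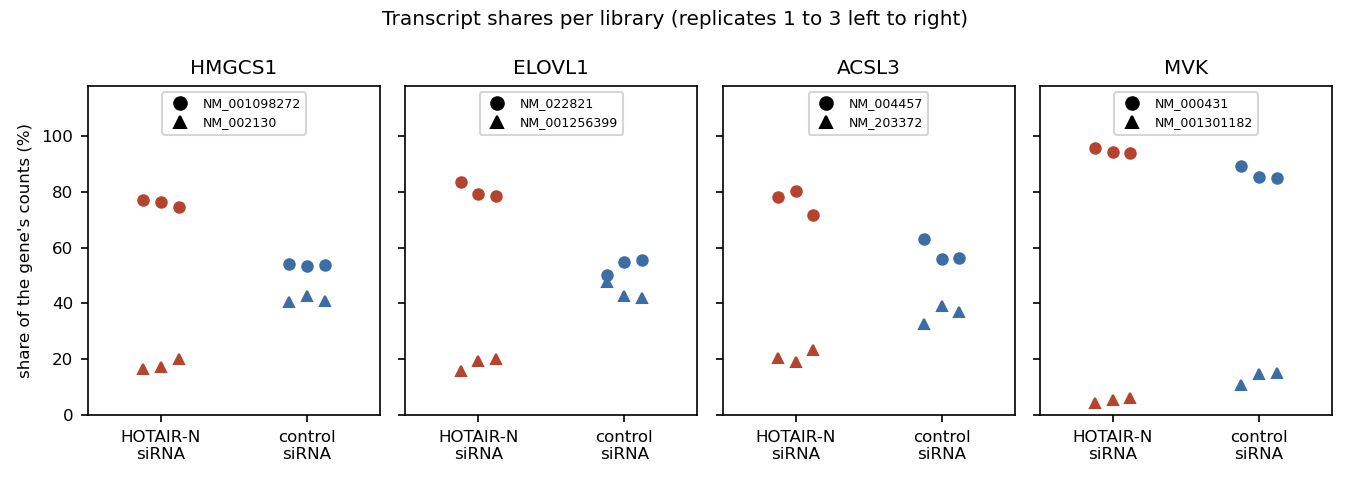
Share of the gene's expected count, in percent, for the 2 main transcripts of the 4 genes with a called share, in each library, HOTAIR-N siRNA left of control siRNA. NM_001098272 of HMGCS1 and NM_022821 of ELOVL1 lie higher with the HOTAIR-N siRNA, the triangles lie lower, and the shares of NM_004457 of ACSL3 and NM_000431 of MVK were not called.

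Genes next to these pathways were read from 8 lists with 102 genes, of which 95 were tested, 38 rose and 37 fell. This share of 78.9% lies near the 71.1% of all genes tested. By list the share ran from 70% (acetyl-CoA and NADPH supply) to 100% (the 3 tested oxysterol enzymes). Of 11 tested genes for SREBP cleavage and sterol-regulated degradation, 5 rose and 3 fell. SPRING1, a cofactor of the protease that first cuts the SREBPs, listed as C12orf49 in the tables, rose (87.1 CPM with the HOTAIR-N siRNA and 43.9 CPM with the control siRNA, log2 fold change 0.99). RNF145, a sterol-responsive ubiquitin ligase, fell (43.5 CPM with the HOTAIR-N siRNA and 115 CPM with the control siRNA, log2 fold change -1.40), as did the protease gene MBTPS1 (-0.48).

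Of 12 genes of the isoprenoid branches, 3 rose and 7 fell. GGPS1, which makes geranylgeranyl pyrophosphate from the product of FDPS, rose (128 CPM with the HOTAIR-N siRNA and 53.8 CPM with the control siRNA, log2 fold change 1.25), as did the dolichol gene DHDDS (0.52). The ubiquinone gene PDSS2 (-1.22) and the methyltransferase gene ICMT (-0.69) fell. Of 10 tested genes for acetyl-CoA and NADPH supply, 2 rose and 5 fell. IDH1, a cytosolic source of NADPH, fell (35.8 CPM with the HOTAIR-N siRNA and 79.5 CPM with the control siRNA, log2 fold change -1.15), as did PGD (-0.63) of the pentose phosphate pathway. MID1IP1, which promotes the activity of acetyl-CoA carboxylase, rose (0.40), as did PGLS (0.27).

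Of 13 other tested enzymes of elongation, desaturation and activation, 3 rose and 7 fell. ACSL4, the synthetase that prefers arachidonate, fell (2.11 CPM with the HOTAIR-N siRNA and 8.94 CPM with the control siRNA, log2 fold change -2.08), opposite to ACSL1, and the dehydratase gene HACD3 fell as well (-1.03). ELOVL4 (1.01) and ACSL6 (2.53, at 0.461 CPM with the HOTAIR-N siRNA and 0.0755 CPM with the control siRNA) rose.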

How the data were processed

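RNA of T47D cells, 3 HOTAIR-N siRNA and 3 control siRNA libraries, was sequenced from stranded, ribosome-depleted total RNA, per the labels' protocols. The submitters' processing notes name STAR 2.6.0c, RSEM 1.3.0 and hg19. Expected counts and TPM per gene and transcript were deposited as RSEM gives them, per the file headers. Expected counts were rounded, filtered with filterByExpr (minimum count 10, minimum total 15), TMM-scaled, and compared by the quasi-likelihood test of edgeR 4.0.16 in R 4.3.3, with Benjamini-Hochberg adjustment over all genes or all transcripts. Printed CPM are TMM-scaled. The SE is the size of the log2 fold change over the square root of the quasi-likelihood F. Shares were tested with limma 3.58.1 on log2((transcript count + 0.5)/(gene count + 1)). TPM serve to compare levels between genes and to sum levels over genes. P-values measure the spread between independent transfections of 1 cell line.

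Each gene of the 37 is named. The 2 called genes with the smallest p in each direction are named of each neighbouring list, and transcripts are named where their share was called. Promoters are shown for the 2 largest rises and the 2 largest falls among called genes whose sequences may be shown. Genes, lists and alternatives were chosen with earlier results of these data known. Some related genes are not reported here. In simulated counts over 14788 genes drawn from this comparison, the gene test recovered 38% of 1.2-fold, 79.6% of 1.5-fold, 85.4% of 2-fold and 100% of 4-fold changes, with 7 false calls. Changes were planted in 200 of those genes, while 71.1% of genes were called in the data. With so few changed genes the adjustment is stricter, so these rates do not carry over to the reported test. Alternatives were other scalings, DESeq2 1.42.0, limma-voom, other filters, a replicate block, each library left out, stricter thresholds and other share tests.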

Additional observations from a re-analysis of the deposited data

How the results depend on the processing

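Of the 27 called genes, 19 kept their call and direction in all 17 alternatives, and 23 did so when the test against a 1.2-fold change and the threshold of 0.01 were set aside. Library totals alone moved the median of all genes to a log2 fold change of 0.12 and their split to 6480 higher and 4263 lower, against 5407 higher and 5198 lower with TMM. Under library totals 14 of the 37 genes were called higher and 16 lower, with 4 fatty acid genes in each direction. Against a 1.2-fold change, 5 of the 37 were higher and 14 lower, with 3 sterol and 1 fatty acid gene higher and 1 regulator in each direction. The same test left 24 higher and 23 lower genes in the neighbouring lists and 3564 higher and 3312 lower of all genes. At an adjusted p under 0.01, 1 fatty acid gene was higher, and 1 to 2 were when single libraries were left out (1 without HOTAIR-N siRNA library 3 or control siRNA library 3). Called shares numbered 3 to 5 when single libraries were left out, and 0 with the replicate number as a block. For libraries with the same number, deviations from the group means had correlations of -0.04, -0.21 and -0.12 across genes. For libraries with different numbers they ran from -0.13 to 0.22, so these values cannot exclude pairing by number. The block left 9 higher and 18 lower of the 37 genes. Signs turned for 3 genes that did not pass the test with TMM: FDPS at -0.00 (DESeq2 and its size factors) or -0.01 (no filter, without HOTAIR-N siRNA library 1, without control siRNA library 2), NSDHL at -0.01 (DESeq2 and its size factors), -0.02 (no filter) and -0.04 to 0.04 with single libraries left out, and SCD at 0.06 (library totals) and 0.02 (upper quartile). ACACB and FADS2 had the lowest counts of the 37 genes, which limits their precision.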

Other observations

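Genes that move and store lipids lay next to the synthesis genes. Of 13 genes for cholesterol uptake, storage and export, 6 rose and 4 fell with the HOTAIR-N siRNA (76.9%, against 71.1% of all genes tested). LIPA, the lysosomal lipase that frees cholesterol from its esters, rose (159 CPM with the HOTAIR-N siRNA and 75.1 CPM with the control siRNA, log2 fold change 1.08), as did the exporter gene ABCA1 (6.18 CPM with the HOTAIR-N siRNA and 1.51 CPM with the control siRNA, log2 fold change 2.03). OSBP, an oxysterol-binding carrier, and VLDLR, a lipoprotein receptor, fell (log2 fold changes -0.90 and -1.11). All 3 tested genes of 6 listed oxysterol enzymes rose, CYP27A1 by 1.23 and CYP39A1 by 0.87 on the log2 scale. Both were low, CYP27A1 at 1.06 CPM with the HOTAIR-N siRNA and 0.448 CPM with the control siRNA. CYP39A1 was at 1.79 CPM with the HOTAIR-N siRNA and 0.98 CPM with the control siRNA. The more abundant HSD3B7 rose by 0.26 (34.1 CPM with the HOTAIR-N siRNA and 28.5 CPM with the control siRNA). CH25H had 0 counts in every library.

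Of 14 tested genes of glycerolipid synthesis and droplets, 7 rose and 4 fell (78.6%, against 71.1% of all genes tested). DGAT2, which completes triglycerides, rose (23.9 CPM with the HOTAIR-N siRNA and 11.5 CPM with the control siRNA, log2 fold change 1.05), as did the phosphatidate phosphatase gene LPIN1 (0.90). PCYT1A, the regulated step of phosphatidylcholine synthesis, fell (90.3 CPM with the HOTAIR-N siRNA and 182 CPM with the control siRNA, log2 fold change -1.01), as did the choline kinase gene CHKA (-0.53). Of 19 fatty acid oxidation genes, 9 rose and 7 fell (84.2%, against the same 71.1%). PPARGC1A, a coactivator of oxidation genes, rose by 1.15 and ACADVL by 0.33 on the log2 scale, while PPARA and ECI1 had log2 fold changes of -0.75 and -0.46 and fell.

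GACCAAT is a 7-mer that an earlier search chose by the fold changes of these libraries, so its values are a description. It was in the 3′ UTRs of 838 of 13218 tested genes (6.34%), with a median log2 fold change of -0.33 against 0.01 for genes without it. It was in 2 of the 37 synthesis genes (5.41%), LSS and NSDHL. The 6-mer ACCAAT within it was in 24.3% of tested genes, with a median log2 fold change of -0.14 against 0.04 for genes without it. It was in 6 of the 37 (16.2%), LSS, NSDHL, STARD4, FASN, ACSL3 and INSIG1. Their median log2 fold change was -0.37, against -0.11 for the synthesis genes without it. These 6 values ran from -1.44 for INSIG1 to 0.24 for STARD4. The part of either sequence in the result was not tested.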
